A study of Homo sapiens with 15 samples.

Results

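The genes described here encode the protein components of the cytosolic ribosome. They were taken as the rows whose symbol follows the RPL and RPS numbering, or is RPSA, RPLP0, RPLP1 or RPLP2, with a mean of 50 or more raw counts over 15 libraries and no pseudogene symbol. Of the 25737 rows of the table, 91 followed the naming pattern and 82 were kept as members, 32 of the small subunit and 50 of the large subunit. The other 9 rows were under the limit, among them 5 extra rows for RPS18 with 0 counts in every library, RPL3L with a mean of 1.8 counts and RPL10L with 6.13. The lowest member was RPL21, with a mean of 351 counts, so the limit fell in a wide gap. All 82 members were among the 12869 tested rows.

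U87MG, a long-established line grown from a human glioblastoma, was studied 24 h after lentiviral transduction. The 15 libraries form 5 groups of 3. In GFP, the control group, the virus carried a fluorescent protein, and in the other groups the label names ID1, ID2, ID3 or ID4 as the overexpressed gene. No group was left without virus. ID proteins are helix-loop-helix factors that bind other helix-loop-helix proteins and keep them off DNA. QuantSeq reads the 3′ end of polyadenylated transcripts, so each count is a read near a transcript end. The vector and promoter of the viruses are not given in the sources used here. Nothing states whether the libraries of a group came from separate cultures, so p-values measure the spread between these samples, which may be technical.

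Total counts per library were between 11089044 and 15148979, and 3 counts corresponded to 0.198 to 0.271 CPM, counts scaled to a common library total. The labels were checked against the 4 overexpressed genes. Counts of ID4 were 2479 to 3110 under its own label against at most 2 with GFP, and ID3 rose under its own label (log2 fold change 0.49). ID1 and ID2 fell in the libraries that carry their names, by 0.48 and 0.92 on the log2 scale, so groups are named by label only. Of 12 markers of glioma cells, VIM, CD44, TNC, NES, CHI3L1 and CAV1 were tested, whereas GFAP, OLIG2, SOX2, S100B, FABP7 and PTPRZ1 averaged 5.07 counts or fewer. Of the markers of other cell types 3 were tested (CD68, SYT1 and MBP), with a sum of 58.4 to 65.2 CPM under GFP and of 53.8 to 79.4 CPM under the other labels, and they did not move together. CD68 rose with ID2 (0.47), ID3 (0.20) and ID4 (0.21), SYT1 fell with ID1 (-0.70), and MBP, at a mean of 22.4 counts, fell by 1.99 to 2.75 with all 4 labels. The defining markers PTPRC, CD3E, VWF and KRT5 averaged 2.27 counts or fewer.

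ID2 library 3 stood apart from its group. Its counts differed from those of the other ID2 libraries with a chi-square per degree of freedom of 10.701 and 11.274, while every other pair of libraries within a group was between 2.242 and 5.194. Without it, 44 members were lower and 6 higher than GFP with ID2, against 42 and 6 with it (16.7% and 18.4% of all tested rows with it), and the mean share of counts on the members was 9.18% in place of 9.31%. RPL5 (-0.23), RPL7L1 (-0.32), RPL22 (-0.15) and RPLP2 (-0.13) passed the threshold with ID2 only when it was left out or, for RPL22, also without GFP library 1 (-0.16).

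Ribosomal proteins assemble with ribosomal RNA in the nucleolus into a small subunit, which decodes the message, and a large subunit, which forms the peptide bond. Most of their mRNAs begin with a 5′ terminal oligopyrimidine (TOP) tract, a cytosine followed by a run of pyrimidines, through which the mTORC1 pathway and the protein LARP1 control their translation and stability. A few members have close relatives, such as RPS27L beside RPS27, which are transcribed from separate genes and can differ in regulation.

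The annotated transcript starts of 12 members on which the results turn are shown first, since the starts differ between most members that were lower and most that were higher than GFP. Each window holds 40 bases before the start in lower case and the first 10 transcribed bases in capitals, in GRCh37, read 5′ to 3′ on the strand of the gene. The first group was lower than GFP in at least 2 comparisons and starts with C and at least 4 further pyrimidines.
RPL13 (chr16:89627050-89627099, plus strand): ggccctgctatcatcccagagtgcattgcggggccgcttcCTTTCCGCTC
RPS24 (chr10:79793581-79793630, plus strand): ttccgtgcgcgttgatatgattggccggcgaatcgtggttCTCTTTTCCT
RPS12 (chr6:133135668-133135717, plus strand): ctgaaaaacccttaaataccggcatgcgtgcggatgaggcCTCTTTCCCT
RPL26 (chr17:8286502-8286551, minus strand): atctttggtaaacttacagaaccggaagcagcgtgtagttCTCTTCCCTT
RPL22L1 (chr3:170587975-170588024, minus strand): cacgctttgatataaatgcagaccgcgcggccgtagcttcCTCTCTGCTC

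Among members that were higher than GFP in at least 2 comparisons, RPLP1 and RPL41 have such a start.
RPLP1 (chr15:69745117-69745166, plus strand): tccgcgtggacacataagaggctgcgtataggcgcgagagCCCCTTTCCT
RPL41 (chr12:56510377-56510426, plus strand): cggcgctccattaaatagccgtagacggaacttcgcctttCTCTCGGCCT
RPL4, RPS26, RPS27L and RPL26L1 were also higher and start with A or G in this annotation, and so does RPL39L, which was lower in every comparison with GFP.
RPL4 (chr15:66797184-66797233, minus strand): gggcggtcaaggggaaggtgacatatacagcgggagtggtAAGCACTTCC
RPS26 (chr12:56435662-56435711, plus strand): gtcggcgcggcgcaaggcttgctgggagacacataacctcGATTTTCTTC
RPS27L (chr15:63449667-63449716, minus strand): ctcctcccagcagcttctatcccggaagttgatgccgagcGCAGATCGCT
RPL26L1 (chr5:172386387-172386436, plus strand): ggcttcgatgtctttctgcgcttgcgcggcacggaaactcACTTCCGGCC
RPL39L (chr3:186857275-186857324, minus strand): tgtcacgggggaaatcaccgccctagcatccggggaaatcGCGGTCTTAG
A match or its absence describes the letters of this annotated window only.

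The share of all counts that fell on members was smaller in each group labelled with an ID gene than in the GFP group. It was 10.8%, 10.6% and 10.5% in GFP libraries 1 to 3 and 9.68%, 9.56% and 9.73% in the ID1 libraries. The ID2 libraries had 9.19%, 9.17% and 9.58%, and the ID3 libraries had 9.52%, 9.63% and 9.41%. The ID4 libraries lay between, at 10.1% in each of the 3. No library labelled with an ID gene reached the lowest GFP library, and the ID4 libraries overlapped neither GFP nor the other 3 groups. The Wilson 95% interval of a share was at most 0.018 percentage points to either side, which covers counting error only.

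As group means, the share was 10.6% ± 0.143 (SD, n = 3) for GFP, and lower by 0.967 percentage points with ID1, 1.31 with ID2, 1.11 with ID3 and 0.535 with ID4. The share is relative to all other transcripts, and in bulk RNA fewer cells of a kind and less RNA per cell cannot be told apart. Of the 20 rows with the highest counts, 7 were members. The 6 members with the largest loss carried 54.8% of the difference with ID1, 53.3% with ID2, 54.5% with ID3 and 68.6% with ID4. RPS27A, which is made as a fusion with ubiquitin, RPS20, RPS24 and RPS12 were among these 6 each time. Without the 20 highest rows the share was 7.07% in GFP and 6.64%, 6.49%, 6.59% and 6.91% with ID1 to ID4. On this measure the ID4 group overlapped GFP, with 6.93% in ID4 library 3 and 6.92% in GFP library 3. Libraries labelled ID1, ID2 and ID3 stayed below every GFP library.

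**Figure D1:**
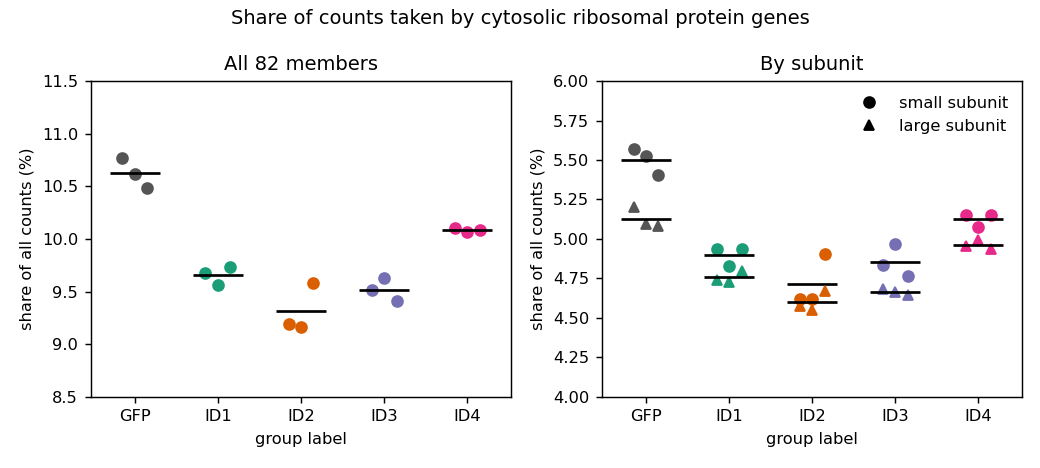
Share of all counts (%) taken by the 82 members (left) and by small and large subunit genes (right) in each library, by group label; points are libraries and bars are group means, and the axes do not start at 0. The 3 GFP libraries sit at 10.5% to 10.8%, above the ID4 libraries at 10.1% and all others at 9.73% or less.

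Both subunits contributed. Small subunit genes took 5.50% ± 0.0863 (SD, n = 3) of counts in GFP and 4.71% to 5.13% as means of the other groups, and large subunit genes took 5.13% ± 0.0645 (SD, n = 3) in GFP and 4.60% to 4.96%. The ratio of small to large subunit counts was 1.063 to 1.0843 in the GFP libraries. It was 1.02 to 1.04 with ID1, 1.01 to 1.05 with ID2, 1.03 to 1.07 with ID3 and 1.02 to 1.04 with ID4, so the ID3 group overlapped GFP. A few abundant genes weigh on these sums.

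Gene by gene, most members were slightly lower than GFP, and few were higher. With ID1, 31 of the 82 members fell and 6 rose (edgeR, adjusted p under 0.05), while 9.74% of all tested rows were lower and 12.4% were higher. With ID2, 42 fell and 6 rose, against 16.7% and 18.4% of all rows. With ID3, 47 fell and 4 rose, against 13.5% and 15.1%. With ID4, 22 fell and 7 rose, against 9.51% and 12%. As shares of the members, 37.8%, 51.2%, 57.3% and 26.8% were lower and 7.32%, 7.32%, 4.88% and 8.54% were higher. All 4 comparisons share the GFP libraries.

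The changes were small. The median log2 fold change of the members was -0.12 with ID1, -0.14 with ID2, -0.17 with ID3 and -0.08 with ID4, and the quartiles of the members were -0.19 and -0.08, -0.21 and -0.06, -0.25 and -0.09, and -0.15 and -0.01. Over all tested rows the 4 medians were within 0.01 of 0. The estimate was under 0 for 72, 74, 74 and 65 members, against 49.8%, 50.5%, 50.3% and 50.2% of all tested rows, and in all 4 comparisons for 64 of them. The 3 libraries of the group lay below all 3 GFP libraries for 56, 43, 56 and 39 members, against 17.6%, 20.2%, 19.8% and 18% of all tested rows. They lay above all GFP libraries for 6, 5, 4 and 7 members, against 19.4%, 21.9%, 21.3% and 19.3%. No member changed by more than 2-fold, the limit set for the ID1 signature in the methods of the study.

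**Figure D2:**
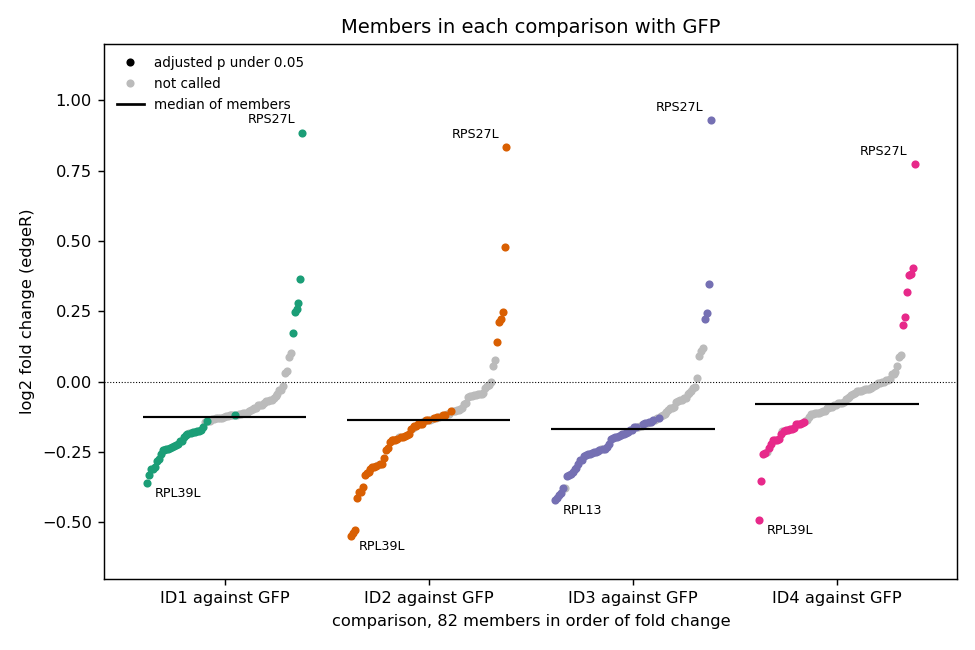
Log2 fold change of each of the 82 members against GFP, ordered within each comparison; coloured points passed an adjusted p of 0.05 in edgeR, grey points did not, and the bar is the median of the members. The medians lie at -0.12, -0.14, -0.17 and -0.08, and RPS27L stands at the top in all 4 comparisons.

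The number of calls depended on single libraries most for ID4. Without ID4 library 1 the count of lower members was 12, and it was 14 without ID4 library 2 or without GFP library 2. Of the lower calls, 20 of 31 with ID1, 28 of 42 with ID2, 33 of 47 with ID3 and 10 of 22 with ID4 were made whichever single library was left out. Of the higher calls, 4 of 6, 4 of 6, 4 of 4 and 6 of 7 were. Other named members passed only without 1 library: with ID1, RPL34 (-0.15 without GFP library 2 and -0.16 without ID1 library 3), RPL41 (0.15 without GFP library 1) and RPSA (-0.15 without GFP library 3), and with ID3, RPL4 (0.15 without ID3 library 1) and RPL6 (-0.18 without GFP library 3).

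Among small subunit genes, 14, 14, 20 and 11 of 32 fell with ID1 to ID4 and 3, 3, 2 and 3 rose. As shares, 43.8%, 43.8%, 62.5% and 34.4% were lower, against 9.74%, 16.7%, 13.5% and 9.51% of all tested rows. The higher shares were 9.38%, 9.38%, 6.25% and 9.38%, against 12.4%, 18.4%, 15.1% and 12%. RPS12 lies on the solvent side of the small subunit. Its level was 3854, 4037 and 3887 CPM in the GFP libraries and 3414, 3299 and 3398 with ID1. With ID2 it was 2694, 2611 and 2818, with ID3 3094, 3418 and 3474, and with ID4 3566, 3526 and 3567. Every library labelled with an ID gene was below every GFP library, and those labelled ID2 were below all others. The log2 fold change was -0.54 with ID2 (standard error 0.05, edgeR adjusted p = 5.84e-09), -0.22 with ID1, -0.24 with ID3 and -0.14 with ID4. The call with ID4 was lost without GFP library 2 or any of the ID4 libraries (log2 fold change -0.12 at the least).

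RPS24, a small subunit protein needed for processing of 18S ribosomal RNA, was at 4456, 4400 and 4557 CPM in GFP. It was at 3629, 3494 and 3701 with ID1, 3629, 3441 and 3580 with ID2, 3698, 3596 and 3659 with ID3, and 3988, 3834 and 3784 with ID4. No library of the other groups overlapped GFP. It fell by 0.31, 0.33, 0.29 and 0.21 on the log2 scale (standard error 0.04 each, largest edgeR adjusted p = 0.000607).

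RPS9, a protein of the early-assembling body of the small subunit, fell by 0.24, 0.24, 0.17 and 0.23. Its call with ID3 was lost without GFP library 2, GFP library 3, ID3 library 2 or ID3 library 3 (-0.14 at the least). RPS20 fell by 0.30, 0.27, 0.17 and 0.22, and its call with ID3 was lost without GFP library 1 or ID3 library 3 (-0.14 at the least). RPS16, named after its values were seen, fell by 0.22, 0.21, 0.25 and 0.20.

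RPS27A was the member with the most counts. It was at 11211, 11951 and 11751 CPM in GFP and between 8213 and 10983 CPM in all other libraries. It fell with ID1 (-0.20), ID2 (-0.31) and ID3 (-0.38, edgeR adjusted p = 4.75e-06), whereas with ID4 the value was -0.11 and did not pass (adjusted p = 0.116). RPS6, the substrate of the S6 kinases downstream of mTORC1, fell with ID2 (-0.13) and ID3 (-0.19), and was at -0.07 with ID1 and 0.01 with ID4. RPSA, the laminin receptor precursor, fell with ID2 (-0.19), ID3 (-0.24) and ID4 (-0.17), and was at -0.13 with ID1 (edgeR adjusted p = 0.058). The call of RPS6 with ID2 was lost without GFP library 2 or ID2 library 1 (-0.12 at the least), and that of RPSA with ID4 without GFP library 2 or ID4 library 1 (-0.14 at the least).

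Among large subunit genes, 17, 28, 27 and 11 of 50 fell with ID1 to ID4 and 3, 3, 2 and 4 rose. As shares, 34%, 56%, 54% and 22% were lower, against 9.74%, 16.7%, 13.5% and 9.51% of all tested rows. The higher shares were 6%, 6%, 4% and 8%, against 12.4%, 18.4%, 15.1% and 12%. RPL13 was at 1780, 1818 and 1815 CPM in the GFP libraries and 1452, 1409 and 1438 with ID1. It was at 1259, 1213 and 1286 with ID2, 1279, 1384 and 1386 with ID3, and 1430, 1382 and 1432 with ID4. The GFP libraries were above all 12 others. The log2 fold changes were -0.33, -0.53, -0.42 and -0.35 (standard error 0.04 each, largest edgeR adjusted p = 4.77e-06), and the call was made whichever library was left out.

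RPL26, a large subunit protein that also binds the p53 mRNA, was at 1513, 1523 and 1491 CPM in GFP and at 1389 or less in all other libraries. It fell by 0.26, 0.30, 0.40 and 0.15, and the call with ID4 was lost without GFP library 2 or ID4 library 2 (-0.12 at the least). RPL3, which lies at the peptidyl transferase centre, fell by 0.28, 0.21, 0.33 and 0.21, but 98.7% of the 50-base runs at its transcript end also occurred elsewhere in the genome. RPL34 fell with ID2 by 0.39 and with ID3 by 0.19, and RPL6 fell with ID2 by 0.41. RPL8 and RPL28, named after their values were seen, fell in all 4 comparisons, by 0.17 to 0.30 and 0.20 to 0.23.

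RPL5 and RPL11 form with 5S ribosomal RNA a particle that binds MDM2 when assembly fails. RPL11 was at 938, 1064 and 1110 CPM in GFP, 890, 880 and 714 with ID2, and 697, 779 and 893 with ID3. It fell with ID2 (-0.33) and ID3 (-0.39, edgeR adjusted p = 0.00078), while the values were -0.12 with ID1 and -0.03 with ID4. RPL5 fell with ID1 (-0.19, edgeR adjusted p = 0.0357) and was at -0.13, -0.15 and -0.09 in the others, and its call was lost without GFP library 1, GFP library 2, ID1 library 2 or ID1 library 3 (-0.16 at the least). With all libraries, the pair was called together in none of the 4 comparisons, and without ID2 library 3 RPL5 also fell with ID2 (-0.23).

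The stalk of the large subunit, which recruits elongation factors, did not move as a unit. RPLP1 was at 2804, 2746 and 2791 CPM in GFP, 3164, 3118 and 3117 with ID1, and 3235, 3112 and 3396 with ID2. It was at 3342, 3224 and 3315 with ID3 and 3480, 3524 and 3396 with ID4. All 12 libraries were above GFP, and RPLP1 rose by 0.17, 0.22, 0.24 and 0.32 on the log2 scale (standard error 0.04 each, largest edgeR adjusted p = 0.00345). Its partner RPLP2 fell with ID1 (-0.24) and ID4 (-0.17) and was at -0.04 with ID2 (-0.13 and past the threshold without ID2 library 3) and -0.13 with ID3. RPLP0, the base of the stalk, fell with ID1 (-0.18), ID2 (-0.10) and ID3 (-0.13), and was at -0.03 with ID4. RPL12, which sits at the foot of the stalk, fell with the same 3 labels, by 0.17, 0.15 and 0.18, and was at 0.01 with ID4. Several of these calls rested on single libraries. RPL12 lost its call with ID1 and ID2 without GFP library 1, GFP library 2 or library 1 or 2 of the labelled group (-0.11 and -0.09 at the least), and with ID3 without GFP library 1 or ID3 library 1 (-0.12). RPLP0 lost its call with ID2 without any single library of the comparison other than ID2 library 3 (-0.09) and with ID3 without ID3 library 1 (-0.12 at the least). RPLP2 lost its call with ID4 without GFP library 1, GFP library 2, ID4 library 1 or ID4 library 2 (-0.16 at the least).

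**Figure D3:**
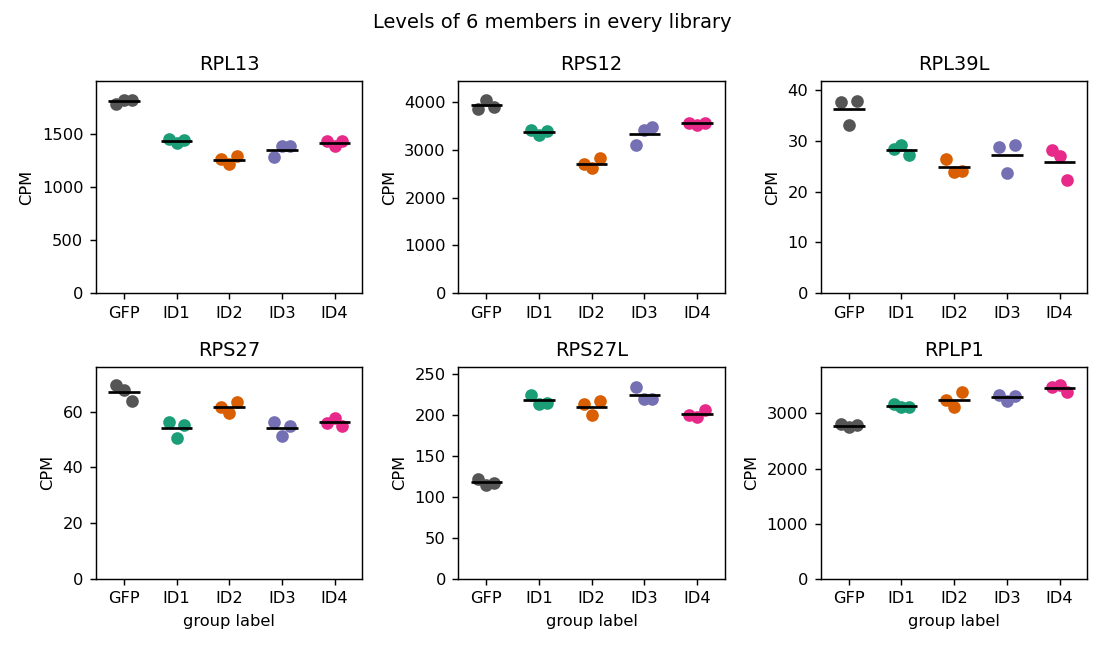
Levels in TMM-scaled CPM of RPL13, RPS12, RPL39L, RPS27, RPS27L and RPLP1 in every library, by group label; points are libraries, bars are group means and each axis starts at 0. GFP is highest for RPL13, RPS12, RPL39L and RPS27, and lowest for RPS27L (115 to 121 CPM against 198 or more) and RPLP1.

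RPS27L showed the largest change of any member. It is a close relative of RPS27 and a known transcriptional target of p53. Its level was 121, 115 and 118 CPM in GFP, 225, 213 and 215 with ID1, and 214, 199.99 and 217 with ID2. It was 234, 220.1 and 220.0 with ID3 and 201, 198 and 206 with ID4. The lowest library labelled with an ID gene was far above the highest GFP library. The fold was 1.85, 1.78, 1.91 and 1.71 (log2 0.89, 0.84, 0.93 and 0.77, standard error 0.05 each), with edgeR adjusted p between 8.16e-12 and 3.23e-10.

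RPS27 itself went the other way. It was at 69.6, 67.7 and 63.8 CPM in GFP, 56.4, 50.7 and 55.3 with ID1, and 56.3, 51.2 and 54.9 with ID3. It was at 56.1, 57.9 and 54.8 with ID4 and at 61.9, 59.4 and 63.4 with ID2, just under the lowest GFP library. RPS27 fell with ID1 (-0.31), ID3 (-0.31) and ID4 (-0.25) and was at -0.12 with ID2 (edgeR adjusted p = 0.135). In RPS27, 96.7% of the 50-base runs at the transcript end occurred elsewhere in the genome, and in RPS27L none did.

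The other relatives followed no common direction. RPL39L, a relative of RPL39 known best from testis, had the largest fall among members with ID1, ID2 and ID4. It was at 37.6, 33.1 and 37.9 CPM in GFP, 28.3, 29.2 and 27.2 with ID1, and 26.5, 23.9 and 24.1 with ID2. It was at 28.8, 23.6 and 29.3 with ID3 and 28.2, 27.1 and 22.2 with ID4, so that no library overlapped GFP. It fell by 0.36, 0.55, 0.41 and 0.49 (standard error 0.10 each, largest edgeR adjusted p = 0.00882), and RPL39 by 0.24, 0.19 and 0.19 with ID1 to ID3, with -0.14 for ID4. The call of RPL39 was lost with ID2 without ID2 library 2 (-0.14 at the least) and with ID3 without GFP library 1 or ID3 library 2 (-0.15 at the least).

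RPL26L1 rose with ID1 (0.28, edgeR adjusted p = 0.00893) and ID4 (0.23, adjusted p = 0.0334) while RPL26 fell. Both calls rested on single libraries: that with ID1 was lost without ID1 library 3 (0.23), and that with ID4 without any single library of the comparison (0.20 at the least). RPL22L1 fell with ID1 (-0.24), ID2 (-0.14) and ID3 (-0.22) and was at -0.02 with ID4, whereas RPL22 was called in none except with ID2 without GFP library 1 or ID2 library 3 (-0.16 and -0.15). RPL7L1, which is named after RPL7 and takes part in ribosome assembly, was called in none, with values of -0.11, -0.20, -0.24 and -0.25, but passed with ID2 without ID2 library 3 (-0.32), with ID3 without ID3 library 1 (-0.31) and with ID4 without ID4 library 3 (-0.37). RPL7 fell with ID2 (-0.29), ID3 (-0.20) and ID4 (-0.17) and was at -0.14 with ID1. RPL36A was called in none. RPL10, which completes the large subunit in the cytoplasm, fell with ID1 (-0.21), ID3 (-0.25) and ID4 (-0.15) and was at -0.09 with ID2. Without single libraries, calls were lost for RPL22L1 with ID2 (GFP library 1, GFP library 3, ID2 library 1 or ID2 library 3, -0.11 at the least), RPL7 with ID3 (GFP library 1, -0.15) and with ID4 (GFP library 1, ID4 library 1 or ID4 library 2, -0.13), and RPL10 with ID4 (GFP library 1, GFP library 2, ID4 library 1 or ID4 library 2, -0.13).

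Across the 4 comparisons, 12 members were called lower in all, while 4.17% of all tested rows were. Among these were RPL3, RPL8, RPL13, RPL26, RPL28, RPL39L, RPS9, RPS12, RPS16, RPS20 and RPS24. For 7 of them (RPL3, RPL8, RPL13, RPL28, RPL39L, RPS16 and RPS24) each call was also made with any single library left out. Those called higher in all 4 included RPLP1 and RPS27L, while 6.11% of all tested rows were, and RPL4, RPL41 and RPS26 in 3. With all libraries, 16 members were called in no comparison, among them RPL21, RPL22, RPL36A and RPL7L1, and no member was called in both directions.

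The members that rose were concentrated on chromosomes 12 and 15, where other genes were also higher. The 4 members on chromosome 15, among them RPL4, RPLP1 and RPS27L, were called higher, except RPL4 with ID3 (0.11). The median log2 fold change of the 414 other tested genes on this chromosome was 0.34, 0.26, 0.32 and 0.37 with ID1 to ID4, and 51.9%, 41.3%, 46.9% and 54.8% of them were called higher. On chromosome 12, the median of 668 other genes was 0.18, 0.20, 0.14 and 0.19, and RPS26 and RPL41 were above GFP while RPLP0 and RPL6 were not. Some other chromosomes were lower, and some were not. On chromosome 3, which holds 9 members, the median of other genes was 0.02, 0.02, 0.01 and 0.01. On chromosome 10, which holds RPS24, the median of 499 other genes was -0.14, -0.15, -0.08 and -0.10. With ID2 it was -0.14, -0.12 and -0.14 on chromosomes 4, 8 and 9, and all members there were called lower. RPL34 lies on chromosome 4, where the median with ID3 was 0.04 and 2 of 3 members were called lower. The part of chromosome-wide differences in the members' values was not tested.

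Set beside their 20 nearest tested neighbours, the members that rose differed. The neighbours' median was 0.42, 0.42, 0.40 and 0.42 around RPS27L, well under its own 0.89, 0.84, 0.93 and 0.77. Around RPL4 it was 0.29, 0.22, 0.28 and 0.38, and the gene itself was at 0.25, 0.14, 0.11 and 0.40. Around RPL41 it was 0.21, 0.30, 0.23 and 0.28, and around RPS26 0.22, 0.30, 0.24 and 0.25. Over all members called higher, the neighbours' median ranged from 0.05 to 0.42 with ID1, 0.01 to 0.42 with ID2, 0.22 to 0.40 with ID3 and 0.12 to 0.42 with ID4. Over all members called lower it lay on both sides of 0, from -0.15 to 0.16, -0.27 to 0.15, -0.13 to 0.18 and -0.17 to 0.14, so the ranges overlapped except with ID3.

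RPS26, which contacts the mRNA upstream of the exit, was at 33.2, 37.04 and 32.2 CPM in GFP and 46.9, 48.2 and 47.5 with ID2, and rose with ID1 (0.36), ID2 (0.48) and ID4 (0.38). RPL41, the shortest ribosomal protein, rose with ID2 (0.25), ID3 (0.22) and ID4 (0.20) and was at 0.10 with ID1. RPL4, which lines the exit tunnel, rose with ID1 (0.25), ID4 (0.40) and ID2 (0.14), the last lost without any of GFP library 2, GFP library 3, ID2 library 1 and ID2 library 2 (0.10 at the least).

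Outside chromosomes 12 and 15, 74 members remained, including those on chromosomes 4, 8, 9 and 10. Of these, 30, 40, 46 and 22 were lower with ID1 to ID4, and 1, 0, 0 and 1 were higher, the one being RPL26L1. Over all tested rows, 9.74%, 16.7%, 13.5% and 9.51% were lower and 12.4%, 18.4%, 15.1% and 12% higher. The medians of the 74 members were -0.13, -0.14, -0.18 and -0.09.

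**Figure D4:**
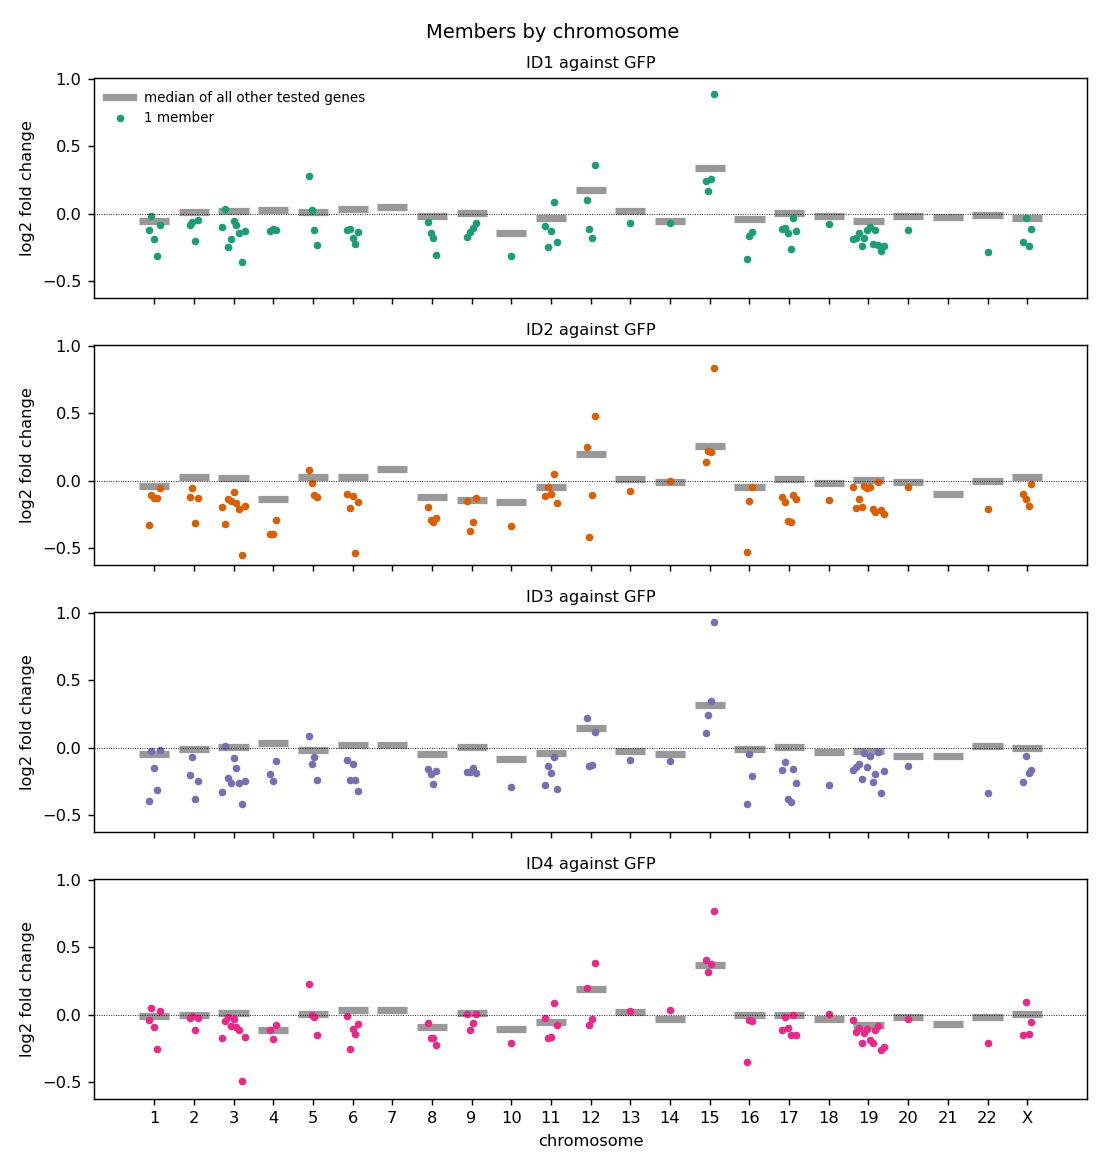
Log2 fold change of each member (points) against GFP by chromosome, with 1 panel per comparison; grey bars are the medians of all other tested genes on the chromosome. The bars of chromosomes 12 and 15 stand at 0.14 to 0.37, and the 4 members on chromosome 15 lie above 0 in every panel while most members elsewhere lie below.

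A TOP start, read as C at the annotated start followed by at least 4 pyrimidines (C or T, on the transcribed strand only), was present in 59 of the 82 members (72.0%), against 4.59% of 19894 windows of protein-coding genes. Of these 59 members, 28, 34, 39 and 19 fell with ID1 to ID4 and 1, 2, 2 and 2 rose. Of the other 23 members, 3, 8, 8 and 3 fell and 5, 4, 2 and 5 rose. Over all tested rows, 9.74%, 16.7%, 13.5% and 9.51% were lower and 12.4%, 18.4%, 15.1% and 12% higher. The medians were -0.13, -0.15, -0.19 and -0.09 with a TOP start and -0.10, -0.12, -0.12 and -0.05 without. The higher members without such a start include RPL4, RPS26 and RPS27L on chromosomes 12 and 15, so start and chromosome overlap. The 598 other tested genes with the same kind of start had medians of -0.05, -0.04, -0.05 and -0.03.

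**Figure D5:**
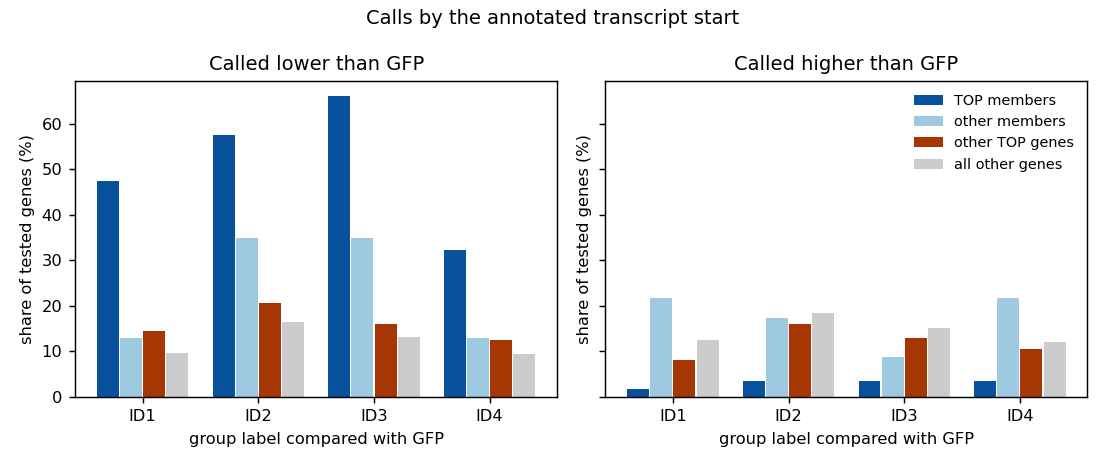
Share of tested genes (%) called lower (left) or higher (right) than GFP, for 59 members with a TOP start, 23 other members, 598 other genes with a TOP start and all other tested genes. Members with a TOP start have the tallest bars for lower calls (47.5%, 57.6%, 66.1% and 32.2%), and other TOP genes reach 12.5% to 20.7%.

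Length and abundance were compared in the same way. Among 891 other tested genes with transcripts of at most 1000 bases, the medians were -0.02, 0.02, -0.01 and -0.03. Among 172 other genes at or above the level of the median member (644 CPM), they were -0.01, 0.00, -0.06 and 0.00, and 22.7%, 27.9%, 35.5% and 17.4% were called lower. Neither group had a median as low as that of the members, and the part of length and abundance in the members' values was not tested.

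Ribosomal protein genes have many processed copies in the genome, and 3′ reads can be shared with them. In 36 members no 50-base run of the last 200 transcript bases occurred elsewhere in GRCh37, in 22 more than 50% of the runs did, and in 2 all did. Among the 36, 14, 19, 23 and 9 fell and 2, 2, 1 and 2 rose, with medians of -0.12, -0.13, -0.16 and -0.08. The shares over all tested rows were 9.74%, 16.7%, 13.5% and 9.51% lower and 12.4%, 18.4%, 15.1% and 12% higher. Rows named as pseudogenes numbered 31, and 3 of these, named after their counts were seen, had more counts than their parent gene. They were RPL13AP5 (mean 4867 counts against 1240 for RPL13A), RPL21P28 (2183 against 351 for RPL21) and RPS26P11 (1108 against 558 for RPS26), so the levels of these 3 members are uncertain. RPSAP58 came close to its parent (4546 against 4634 for RPSA), so the level of RPSA is uncertain too. RPS26P11 had log2 fold changes of 0.20, 0.39, 0.02 and 0.28, in the order of ID1 to ID4, beside 0.36, 0.48, 0.12 and 0.38 for RPS26.

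Between the groups labelled with ID genes, differences were fewer. Members were lower with ID2 than with ID4 in 18 cases and higher in none, while 9.08% of all tested rows were lower and 9.53% higher. They were lower with ID3 than with ID4 in 17 cases and higher in 1, against 5.77% and 5.49%. Without ID4 library 1 the first count was 10 and without ID4 library 2 it was 11. The second, in both directions, was 10 without ID3 library 1 or ID3 library 2 and 11 without ID4 library 1 or ID4 library 2. The fit to all groups called 3 members different between ID1 and ID4 (2.31% of all tested rows were higher with ID1 and 2.56% lower), and when any single library of these groups was left out it called 1. A fit to these groups alone called 15. The 3 were RPL22L1, RPLP0 and RPLP1, all lower with ID1, by 0.22, 0.15 and 0.15.

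Members were higher with ID1 than with ID2 in 10 cases and lower in 4, against 8.91% and 9.72% of all rows. The sum was 8 without ID1 library 2 and 7 without ID1 library 3. Between ID1 and ID3, 7 were higher with ID1 and 1 lower, against 4.47% and 4.72%, and the sum was 2 without ID1 library 2 or ID1 library 3, 3 without ID3 library 1 or ID3 library 2, and 5 without ID1 library 1. Between ID2 and ID3, 5 were higher and 6 lower with ID2, against 7.58% and 7.47%, and the sum was 5 without ID2 library 1, 6 without ID3 library 2 and 21 without ID2 library 3. RPS12 was lower with ID2 than with ID1 (by 0.32), ID3 (by 0.30) and ID4 (by 0.39, edgeR adjusted p = 2.2e-06). RPL6 and RPL34 also fell below all 3 in the ID2 group: RPL6 was higher with ID1 by 0.30, and ID2 was under ID3 by 0.28 and under ID4 by 0.34. For RPL34 the values were 0.26, 0.20 and 0.28. RPL11 and RPS27A were lower with both ID2 and ID3 than with ID4, RPL11 by 0.29 and 0.36 and RPS27A by 0.20 and 0.27.

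The other genes of translation were counted from lists of pathway members in the same fit. Each count below is to be read beside all tested rows, of which 9.74%, 16.7%, 13.5% and 9.51% were lower with ID1 to ID4. The higher shares were 12.4%, 18.4%, 15.1% and 12%. Of 4 ribosomal protein genes whose symbols do not follow the pattern, among them FAU, GNB2L1 and RPL36AL, 1, 1, 3 and 2 fell with ID1 to ID4 and none rose. FAU, made as a fusion with a ubiquitin-like protein, fell with ID2 (-0.23), ID3 (-0.16) and ID4 (-0.18).

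Of 8 tested genes from a list of elongation factors and TPT1, 5, 2, 4 and 3 fell and 1, 1, 0 and 0 rose. The medians were -0.17, -0.07, -0.14 and -0.10. EEF1G and EEF1D, subunits of the exchange factor of eEF1A, fell in all 4 comparisons, by 0.14 to 0.29 and 0.17 to 0.31, and EIF5A2 was the gene that rose with ID1 (0.41) and ID2 (0.47). Of 38 initiation factor genes, 11, 15, 18 and 10 fell and 2, 0, 1 and 2 rose. PABPC1, the cytoplasmic poly(A)-binding protein, fell by 0.37, 0.52, 0.53 and 0.59, EIF2S2, the beta subunit of eIF2, by 0.47, 0.55, 0.47 and 0.42, and EIF6, which keeps the free large subunit from joining the small one, by 0.32, 0.41, 0.43 and 0.37.

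Host genes of small nucleolar RNAs, mostly non-coding, are known to carry TOP starts, but starts of non-coding genes were not read here. Of 12 such genes, 7, 8, 9 and 5 fell and none rose, with medians of -0.20, -0.37, -0.32 and -0.16. SNHG5 fell by 0.35, 0.62, 0.55 and 0.33, and SNHG16 by 0.18, 0.46, 0.35 and 0.26. SNHG15 fell with ID2 (-0.52) and ID3 (-0.41).

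Of 62 ribosome assembly genes, 5, 19, 22 and 6 fell and 9, 5, 1 and 10 rose. More rose than fell with ID1 and ID4, and more fell than rose with ID2 and ID3. The medians were 0.05, -0.10, -0.14 and -0.02. DDX10, a helicase of small subunit assembly, fell by 0.46, 0.71, 0.65 and 0.47. GAR1, a protein of the pseudouridylation complex, fell with ID2 (-0.58), ID3 (-0.39) and ID4 (-0.22). Of 13 RNA polymerase I genes, 0, 0, 2 and 0 fell and 1, 2, 0 and 1 rose, and TWISTNB rose with ID1 (0.41) and ID2 (0.38).

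Of 25 genes of mTORC1 and its regulators, 6, 5, 5 and 6 fell and 2, 3, 1 and 1 rose. The shares over all tested rows were 9.74%, 16.7%, 13.5% and 9.51% lower and 12.4%, 18.4%, 15.1% and 12% higher. RRAGD, a GTPase that brings mTORC1 to the lysosome, rose by 1.86, 2.43, 1.52 and 1.23. DDIT4 and SESN2, which restrain mTORC1 under stress, fell by 1.13, 1.29, 0.89 and 1.23, and by 0.98, 1.11, 0.87 and 0.91. RPTOR, the scaffold of the complex, fell by 0.55, 0.84, 0.78 and 0.84. LARP1, which binds TOP mRNAs, fell with ID3 (-0.14) and was at -0.02, -0.12 and -0.06 with ID1, ID2 and ID4.

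Since RPS27L is a p53 target, 21 other p53 targets were counted, and 9, 8, 14 and 8 rose while 0, 2, 0 and 1 fell. Over all tested rows, 12.4%, 18.4%, 15.1% and 12% were higher and 9.74%, 16.7%, 13.5% and 9.51% lower. RPS27L lies on chromosome 15, where other genes were also higher, and the part of chromosome-wide differences in these counts was not tested. The p53 targets that fell were TNFRSF10B with ID2 and ID4 and CCNG1 with ID2. BTG2 rose with ID3 by 1.49 and did not pass with the other labels (0.31, 0.62 and 0.94). MDM2, the ubiquitin ligase of p53, rose by 0.40, 0.33, 0.47 and 0.35. TP53I3 rose by 0.46, 0.88, 0.50 and 0.63, and GDF15 by 0.45, 0.39, 0.60 and 0.69. CDKN1A rose with ID1 (0.26), ID2 (0.27) and ID3 (0.38) and was at 0.09 with ID4.

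Mitochondrial ribosome genes were lower in 8, 22, 18 and 11 of 77 cases with ID1 to ID4 and higher in 7, 6, 3 and 3. Both counts were close with ID1, whereas lower calls outnumbered higher ones with ID2 to ID4. The medians were -0.02, -0.10, -0.09 and -0.06. Over all tested rows, 9.74%, 16.7%, 13.5% and 9.51% were lower and 12.4%, 18.4%, 15.1% and 12% higher. MRPS35, on the small mitochondrial subunit, rose by 0.49, 0.59, 0.39 and 0.50, and MRPL44 rose with ID1 (0.72), while MRPL39 fell with ID2 (-0.67) and ID3 (-0.54) and MRPS6 fell by 0.37, 0.55, 0.32 and 0.34. Of 51 nuclear-encoded respiratory chain genes, most of them short and abundant, 4, 8, 8 and 5 fell and 3, 14, 6 and 5 rose, and the medians were -0.03, 0.05, 0.01 and -0.03. NDUFA4 rose by 0.50, 0.54, 0.52 and 0.42.

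Nuclear-retained transcripts, whose counts can depend on the balance of nuclear and cytoplasmic RNA but also on their own expression, were also counted. Of MALAT1, NEAT1 and KCNQ1OT1, 1, 2, 2 and 3 rose with ID1 to ID4 and none fell. NEAT1 lay between 275 and 305 CPM under GFP and between 307 and 420.4 CPM under the other labels, just clear of each other, and MALAT1 overlapped, at 8784 to 12399 and 10845 to 15333 CPM. The number of rows at 0 was 9594 to 9874 in GFP and 9136 to 9657 in the others. Their part in the lower share of the members was not tested.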

How the data were processed

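RNA was measured in 15 libraries by QuantSeq 3′ sequencing. The authors deposited raw counts per gene, with no normalization, and log2 values that they had normalized between libraries. The submitters' processing notes name Bowtie2, BWA and hg19, while the counting tool and annotation are not given in the sources used here. The quasi-likelihood fit of edgeR 4.0.16 (R 4.3.3) was run on the deposited counts with TMM factors (0.978 to 1.026) and 1 mean per group over all 15 libraries. Benjamini-Hochberg adjustment covered the 12869 rows in the upper 50% by mean deposited log2 value (3.22 or more), with a threshold of 0.05. Levels are CPM scaled by TMM for members, and per library total for other genes. The standard error is the log2 fold change over the root of F. The fit was tested on simulated data.

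Depth was 11089044 to 15148979 counts per library, and intervals and floors cover counting error only, since no molecular identifiers are named. Libraries of a group were compared first. The closest pair differed by more than sampling noise (chi-square per degree of freedom 2.242), and ID2 library 3 stood apart from its group (10.701 and 11.274).

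Positions and starts came from GENCODE 44 lifted to GRCh37, the build of the files. All 82 members matched, and of the 25737 rows 22331 matched by symbol, 1418 by a synonym from RefSeq, and 1988 did not. Transcript ends were compared with the whole genome as 50-base runs of the last 200 bases.

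Members named are the 5 with the largest rise and the 5 with the largest fall per comparison with GFP among those past the threshold without overlap, those past 0.5 on the log2 scale, the paralog pairs, the stalk, RPL5, RPL11, RPSA, RPS6, RPS27A, RPL41 and those nearest the count limit, 35 in all. Up to 4 examples are named per gene list, and LARP1, MDM2, CDKN1A, CCNG1, TNFRSF10B and MRPS6 were added once their values were known. The members and lists were chosen with earlier results of these data known. Alternatives were other filters, factors and tests (DESeq2 1.42.0, limma 3.58.1), thinning, a replicate block, the 2 groups alone, a fold threshold, the study's rule and leaving out each library. Counts over members with no copy of the transcript end and over members outside chromosomes 12 and 15 were added after seeing the data. Transcripts of the mitochondrial genome were not analysed here. Plots used matplotlib 3.10.9 (Python 3.11.15). Results on a few genes are not reported here.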

Additional observations from a re-analysis of the deposited data

How the results depend on the processing

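The lower counts of the members kept their direction under every alternative that gave calls. Under the study's rule of more than 2-fold, 0 members were called in any comparison. With a further limit of 0.2 on the log2 scale, 19, 24, 29 and 10 members were lower with ID1 to ID4, and 9, 5, 1, 3, 9 and 11 differed in the pairs ID1 and ID2, ID1 and ID3, ID1 and ID4, ID2 and ID3, ID2 and ID4, and ID3 and ID4. Over members with no copy of the transcript end, 2, 2, 1 and 2 were higher, 14, 19, 23 and 9 lower, and 5, 5, 1, 4, 9 and 11 differed in these pairs, since fewer members were counted. Outside chromosomes 12 and 15, 1, 0, 0 and 1 were higher and 1 differed between ID1 and ID4. With only the groups compared in the fit, 9 differed between ID1 and ID2, 15 between ID1 and ID4, and 3 between ID2 and ID3; the cause was not tested.

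The median was -0.10887, -0.15264 and -0.14676 with ID1, ID2 and ID3 by library totals alone. With ID3 it was -0.15011 over the upper 25% of rows, -0.15076 with upper-quartile factors and -0.18335 outside chromosomes 12 and 15. Without the 20 highest rows the share was 7.0655%, 6.6439%, 6.4910%, 6.5893% and 6.9130% in GFP and ID1 to ID4, and with pseudogene rows 10.818% in GFP, 9.8335% with ID1, 9.6924% with ID3 and 10.271% with ID4.

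Leaving out 1 library at a time, 21 to 35, 33 to 44, 39 to 45 and 12 to 22 members were lower with ID1 to ID4 and 5 to 7, 4 to 6, 4 to 5 and 6 were higher. The medians were -0.14634 to -0.11492, -0.15516 to -0.12619, -0.18677 to -0.15271 and -0.097524 to -0.06968. Members differing numbered 7 to 15, 2 to 8, 1, 5 to 21, 10 to 24 and 10 to 15 in the pairs above.

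The sign changed only for estimates near 0 that passed in neither case. Over the libraries left out, RPL22 ranged from -0.075306 to 0.013076 with ID1, -0.078703 to 0.0096789 with ID3 and -0.0055651 to 0.082813 with ID4, and RPLP2 from -0.12843 to 0.0067359 with ID2. With ID4, RPL11 ranged from -0.10558 to 0.010671, RPL12 from -0.054324 to 0.066126, RPL21 from -0.019907 to 0.083505, RPL22L1 from -0.064062 to 0.010923 and RPS6 from -0.0070909 to 0.018836. The replicate numbers did not pair the samples (correlations -0.249 to 0.244), and with the replicate block 30, 37, 45 and 20 members were lower and 6, 5, 4 and 7 higher. Of 2380 values of named members under the alternatives other than the study's rule, 2230 kept their direction and side of the threshold. Calls near the threshold are limited by 3 libraries a group.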
